A study of Mus musculus with 9 samples.

Results

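The genes described here are the KRAB-type and other zinc-finger genes of mouse macrophages that carry a numbered Zfp name. They were taken by name and level alone. A gene was included if its symbol was Zfp followed by a number and at most 1 letter, if its deposited mean normalised count over the 9 libraries was 100 or more in the TTP-AA vs TTP table, and if it was not Zfp36 or a Zfp36-like gene. This gave 232 genes of the 10423 that reached that mean, and of 303 genes with such a name listed at any mean. Just inside the limit lay Zfp873 with a mean of 100.4 and Zfp703 with 100.5, and just outside it lay Zfp608 with 99.2 and Zfp438 with 98.5.

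The cells were immortalized bone marrow-derived macrophages from mice deficient in tristetraprolin (TTP, encoded by Zfp36), an RNA-binding protein that promotes decay of AU-rich inflammatory mRNAs. All groups shared the TTP deficiency, immortalization with the hcmyc and hRasG12V oncogenes, selection for CD11b and F4/80, doxycycline at 1 µg/ml for 6 h and LPS, the bacterial endotoxin, at 1 µg/ml for 1 h. They differed in the transgene placed behind a doxycycline-inducible promoter, which was GFP alone (the GFP group), wild-type TTP fused to GFP (TTP) or a fusion of the mutant TTP-AA (TTP-AA), whose serines for phosphorylation by the kinase MK2 were replaced by alanine. Each group had 3 libraries of rRNA-depleted total RNA, described by the submitters as biological replicates, and each group is a transduced line, so that line and transgene cannot be told apart.

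The zinc finger named C2H2 is a short fold in which cysteines and histidines hold a zinc ion, and rows of such fingers read DNA. In many mammalian members the fingers follow a KRAB box, which binds the scaffold Trim28 (KAP1). Trim28 in turn recruits the histone methyltransferase Setdb1, HP1 proteins and deacetylases, and this machinery silences retrotransposons and some imprinted genes. KRAB genes arose by repeated local duplication and therefore lie in runs of similar genes. Zfp members with no KRAB box are mixed, and include sequence-specific activators, ubiquitin and SUMO ligases and proteins of the ribosome and the spindle.

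The levels below need a caution that holds for every value. The deposited library values were means fitted by the authors' model, built from a library factor, a term shared by libraries of the same replicate number and a group term, and they hold no scatter between replicates. No test between groups could be made. A difference was called when the group means of log2 scaled levels differed by 1.5-fold or more and the 3 libraries of one group all lay above the 3 of the other, which here means that the group difference exceeded the fitted range over replicate numbers. Errors are 95% counting intervals, which cover the counting of reads alone and are a lower limit of the true error. Levels are reads scaled to a common library size by the median of ratios. Each comparison with GFP uses the same GFP libraries. In bulk RNA, fewer cells with a transcript and less of it per cell cannot be told apart.

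Library sums of the fitted levels ran from 21482954 in TTP replicate 1 to 102613526 in TTP-AA replicate 3, and the 232 genes held 0.453 to 0.549% of them. Of the 8 macrophage markers looked for, 7 were in the level table, led by Lyz2 and Csf1r, while Adgre1 was not found under that name, and the summed scaled levels of these 7 ran from 481901 to 907637 per library, nearly all of it Lyz2. One of the 7, Fcgr1, an Fc receptor, met the calling rule, with TTP at -1.22 against GFP and TTP-AA at 0.85 against TTP. The summed T-cell, B-cell, fibroblast, epithelial and endothelial markers stayed at or below 52.9 in each library. Among these the endothelial gene Kdr, at 13.9 to 36.7 reads, was higher in TTP-AA by 0.89 against GFP and 0.95 against TTP, and the part of these marker differences in the results was not tested. Zfp36 itself had scaled levels of 1752, 1425 and 882 in GFP, 1780.3, 1439 and 898 in TTP and 2859, 2320.1 and 1437 in TTP-AA. GFP and TTP overlapped there, although the GFP line received no TTP transgene, so Zfp36 could not serve as a check of these labels. Reads of the transgene and of the disrupted locus were not told apart.

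All 232 genes were matched by identifier to GENCODE M21 on GRCm38 and all were annotated as protein coding. A KRAB A box was found by sequence pattern in 119 of their proteins, and 113 had no match to it. The share of KRAB boxes that the pattern misses was not worked out. The 113 may therefore include KRAB genes, and every split by this pattern below carries that limit. The 119 had a median of 12 C2H2 fingers and the 113 a median of 7, with 37 as the highest number in the latter. No finger matched the pattern in 5 of the 113. The genes were unevenly spread over the genome, with 52 on chromosome 7, 31 on chromosome 17 and 19 on chromosome 13. Runs of at least 4 members, with gaps of at most 1 Mb, numbered 14 and held 106 of the 232.

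TTP reads AU-rich elements in 3'UTRs, so the members' 3'UTRs were searched on the transcript strand for TATTTAT and for the longer TTATTTATT, which contains it. TATTTAT was found in 74 of the 229 members with an annotated 3'UTR (32.3%) against 28.0% of all genes with a 3'UTR, and TTATTTATT in 24 (10.5%) against 7.22%. Median 3'UTR length was 1320.0 bases in the members and 989 in all genes, so the shares are not from regions of equal length. A match is a run of letters and not a measured binding site. In 5 of the 24 members the first TTATTTATT followed directly on AGAT, as it did in 45 of 707 genes with the nonamer (6.36%). This context was not a planned reading and was counted in the same windows, so the contrast is a description only. The bases shown before the nonamer are the same in Zfp799 and Zfp846, and also in Zfp113 and Zfp322a. The 5 members are shown first, followed by 3 others that recur below or carry a short 3'UTR. They are given as 29-base windows on GRCm38 in which capitals mark the nonamer.

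Zfp799 (chr17:32818358-32818386, minus strand): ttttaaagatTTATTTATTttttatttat
Zfp846 (chr9:20603640-20603668, plus strand): ttttaaagatTTATTTATTattatatgtg
Zfp113 (chr5:138142580-138142608, minus strand): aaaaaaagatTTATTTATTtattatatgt
Zfp322a (chr13:23354806-23354834, minus strand): aaaaaaagatTTATTTATTattatacata
Zfp329 (chr7:12805783-12805811, minus strand): tcttttagatTTATTTATTattaaacaca
Zfp870 (chr17:32879562-32879590, minus strand): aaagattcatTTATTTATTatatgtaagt
Zfp91 (chr19:12769223-12769251, minus strand): ctgagattccTTATTTATTaatggaaagt
Zfp382 (chr7:30134668-30134696, plus strand): ggtgtgctttTTATTTATTtatttatatt

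The members were weakly expressed for these cells. The median scaled level per kilobase of transcript was 113 over the 232 genes and 501 over all 10423. KRAB members had a median of 87.3 per kilobase with a highest value of 383, and members with no KRAB pattern had a median of 178 with a highest value of 3500.1. The 6 highest levels per kilobase all belonged to genes with no KRAB pattern. They were Zfp207 at 3500.1, a microtubule-binding protein of spindle assembly, Zfp740 at 3059, Zfp622 at 2041, which acts in maturation of the large ribosomal subunit, Zfp706 at 1839, Zfp330 at 1581 and Zfp91 at 1276, a ubiquitin ligase. Zfp207 stood at the 90.8th percentile of all genes by this measure, whereas Zfp846 at 11.5 and Zfp709 at 15.5 were the lowest members. The measure depends on the transcript model used, which for Zfp207 had 1562 bases with a 3'UTR of 16. By scaled level without regard to length, Zfp106 at 10179 lay above Zfp207 at 5467.

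**Figure D1:**
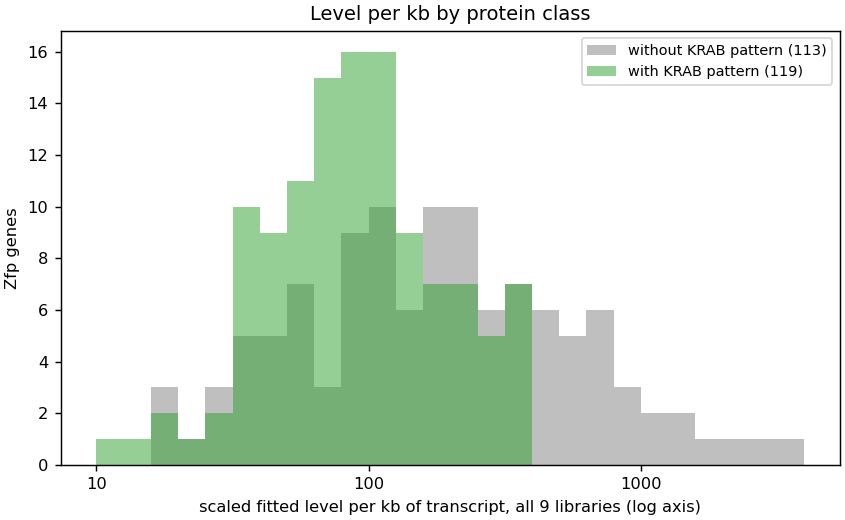
Number of Zfp genes by scaled fitted level per kilobase of transcript, averaged over the 9 libraries (log axis), for 119 genes with a KRAB pattern and 113 without. The 2 classes overlap at low levels, and above 383 per kilobase there are only genes without the pattern.

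The first comparison asked which members differ when wild-type TTP is returned to the deficient cells. Between TTP and GFP, 2 members were called higher and 3 lower, where 0.777% of all genes were called higher and 1.83% lower. The median log2 difference of the 232 was -0.023, beside -0.0048 over all genes. Of the 232, 135 were below 0, as were 5322 of all 10423. The 6728 genes with a mean in the 5 to 95% range of the members had a median of -0.018, with 46.1% above 0. Of those 6728, 3.30% were called, beside 2.16% of the members. Groups did not overlap for 35 members (15.1%), where the share over all genes was 18.5%. Differences within 0.25 on the log2 scale were found for 202 members (87.1%), and for 81.4% of all genes.

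Zfp941 (ENSMUSG00000060314, chr7:140807449-140822178, minus strand), a KRAB gene with 9 fingers, had the widest range of any member. Its scaled levels were 170.1, 167 and 138 in GFP, 43.9, 42.9 and 35.6 in TTP and 127, 125 and 103 in TTP-AA. All TTP libraries lay far below all others, and GFP lay above TTP-AA, again without overlap. TTP was 3.88-fold lower than GFP (log2 difference -1.96, counting interval -2.26 to -1.65), and TTP-AA was 2.90-fold higher than TTP (1.54, 1.24 to 1.84). An annotated gene, Gm45785, overlaps its exons, and reads of such pairs cannot be separated where strand use in counting is not given. Neither AU-rich motif was found in its 3'UTR of 625 bases.

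Zfp799 (ENSMUSG00000095253, chr17:32815449-32830261, minus strand), a KRAB gene with 17 fingers and the nonamer shown above, had levels of 324, 306 and 239.8 in GFP, 184, 172 and 136 in TTP and 313, 295 and 232 in TTP-AA. TTP was thus the low group, while GFP and TTP-AA overlapped. The log2 difference was -0.82 for TTP vs GFP (-0.99 to -0.65) and 0.77 for TTP-AA vs TTP (0.61 to 0.93). Its exons overlap Gm26693.

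Zfp709 (ENSMUSG00000056019, chr8:71882019-71895727, plus strand), a KRAB gene with 19 fingers, was the only member called in all 3 comparisons. Its levels were 119, 88.7 and 114 in GFP, 73.7, 54.6 and 70.6 in TTP and 222, 165 and 212 in TTP-AA, so TTP lay below GFP and TTP-AA above it without overlap. TTP was 1.62-fold lower than GFP (-0.69, -0.96 to -0.43), TTP-AA was 1.86-fold higher than GFP (0.90, 0.71 to 1.08) and TTP-AA was 3.01-fold higher than TTP (1.59, 1.36 to 1.82). No annotated gene overlaps its exons, and 3.82% of its 50-base stretches, the read length, also occur in another gene. Its 3'UTR of 4815 bases holds no TATTTAT.

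The 2 members called higher in TTP lack a KRAB pattern. Zfp651, with 7 fingers, had levels of 518, 514 and 467 in GFP, 952, 938 and 859 in TTP and 718, 711 and 646 in TTP-AA, and the 3 groups did not overlap. TTP was 1.83-fold higher than GFP (0.87, 0.78 to 0.97), with TTP-AA between them, and E530011L22Rik overlaps its exons. Zfp629, with 19 fingers, had levels of 80.6, 87.6 and 94.1 in GFP, 138, 149 and 161 in TTP and 115, 125 and 135 in TTP-AA. GFP was its low group, and TTP was 1.71-fold higher (0.77, 0.55 to 1.00) while TTP-AA differed from GFP by 0.52, short of the 1.5-fold limit.

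The second comparison set the phosphorylation mutant against GFP. Here 3 members were called higher and 2 lower, where 2.22% and 1.54% of all genes were. The median difference was 0.024, beside 0.0029 over all genes, with 126 members above 0 and 106 below. The 6728 genes of like mean had a median of -0.00050, with 49.9% above 0, and 4.73% of them were called, beside 2.16% of the members. Groups did not overlap for 54 members (23.3%), where the share of all genes was 23.9%.

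Both members called lower lack a KRAB pattern. Zfp523, related to the snRNA gene activator Zfp143, had levels of 570.2, 601 and 581 in GFP, 594, 622 and 607 in TTP and 367, 386 and 374 in TTP-AA. GFP and TTP overlapped and TTP-AA lay below both, by -0.64 against GFP (-0.73 to -0.54) and -0.69 against TTP (-0.79 to -0.59). Of its 50-base stretches, 12.4% occur in another gene, and AC126937.2 overlaps its exons.

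Zfp217, an oncogenic transcriptional regulator found with CtBP co-repressors, had the highest counts of the called members. Its levels were 2663, 2599 and 2219 in GFP, 2392, 2319 and 1997 in TTP and 1765, 1719 and 1469 in TTP-AA. TTP-AA was the low group, with a difference of -0.59 from GFP (-0.64 to -0.55), just past the limit, and of -0.44 from TTP, short of it. TATTTAT occurs in its 3'UTR.

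The 3 members with a higher call here were KRAB genes, namely Zfp709, Zfp870 and Zfp874a. Zfp870 had levels of 77.9, 76.3 and 100.4 in GFP, 77.0, 74.9 and 99.5 in TTP and 123, 120.0 and 158 in TTP-AA, so that GFP and TTP coincided and TTP-AA lay above them by 0.65 (0.44 to 0.87) and 0.67 (0.46 to 0.89). It carries the nonamer shown above, CT033772.1 overlaps its exons, and its deposited mean of 101.2 is close to the inclusion limit. Zfp874a had levels of 589, 646 and 442 in GFP, 610.3, 665 and 459 in TTP and 901, 986 and 675 in TTP-AA. TTP-AA was again the high group, by 0.61 against GFP (0.52 to 0.70) and 0.56 against TTP, and 16.3% of its 50-base stretches occur in another gene.

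The third comparison, TTP-AA vs TTP, asked how the mutant differs from the wild-type protein and held the most differences. In it, 8 members were called higher and 1 lower, where 4.22% and 2.26% of all genes were. The members' median was 0.055, beside 0.0036 over all genes, and 145 of the 232 were above 0, as were 5267 of all 10423. The 6728 genes of like mean had a median of 0.016, with 52.4% above 0, and 7.79% of them were called, beside 3.88% of the members. Differences within 0.25 were found for 164 members (70.7%) and for 63.8% of all genes. Groups did not overlap for 62 members (26.7%), where the share of all genes was 29.5%.

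Besides Zfp709, Zfp941, Zfp799 and Zfp870, the genes called higher were Zfp456, Zfp429, Zfp947 and Zfp518b. Zfp456 had levels of 119.5, 147 and 103 in GFP, 87.5, 107 and 75.8 in TTP and 158, 193 and 136 in TTP-AA, and TTP-AA lay above TTP by 0.85 (0.64 to 1.06). Its value is uncertain, since 65.3% of its 50-base stretches occur in other genes and Gm17039 and Gm28041 overlap it. Zfp429 had levels of 96.3, 108 and 94.9 in GFP, 83.7, 93.6 and 82.6 in TTP and 132, 149 and 130.3 in TTP-AA, a difference of 0.66 (0.44 to 0.88), with 26.2% shared stretches and an overlap with Gm48900.

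Zfp947 and Zfp518b lay outside the 6 largest differences and were added after their values were seen. Zfp947 differed by 0.64 (0.51 to 0.77) with 20.05% shared stretches, and Zfp518b, the only gene of the 8 without a KRAB pattern, by 0.59 (0.44 to 0.73) with no shared stretches. Zfp518b lay at the limit, and its call ended with library scaling by totals (0.56) or over all listed genes (0.57) and with a minimum mean of 50 (0.58). The only member called lower was Zfp523, given above.

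**Figure D2:**
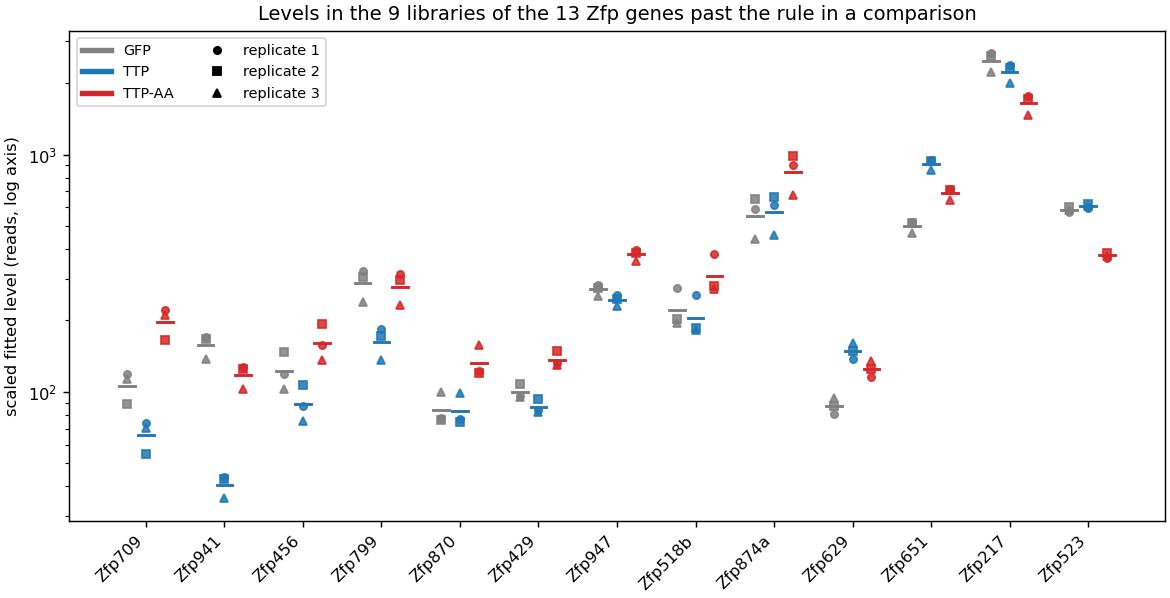
Scaled fitted levels (reads, log axis) of the 13 Zfp genes called in at least 1 comparison, with a point for each of 9 libraries, shapes for replicate numbers and a bar at each group's mean of log2 levels. Zfp709 and Zfp941 are lowest in TTP, and Zfp523 is lowest in TTP-AA.

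In all, 13 of the 232 members (5.60%) were called in any comparison, where 7.95% of all genes were, and 219 in none. Of the 13, 8 had a KRAB pattern, as did 119 of all 232, and 7 had TATTTAT in the 3'UTR, as did 74 of all 232. Exons of another gene overlapped 7 of them, as in 74 of all 232, and 5 shared 10% or more of their 50-base stretches with other genes, as in 52 of all 232. The part of shared or overlapping reads in the calls was not tested.

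**Figure D3:**
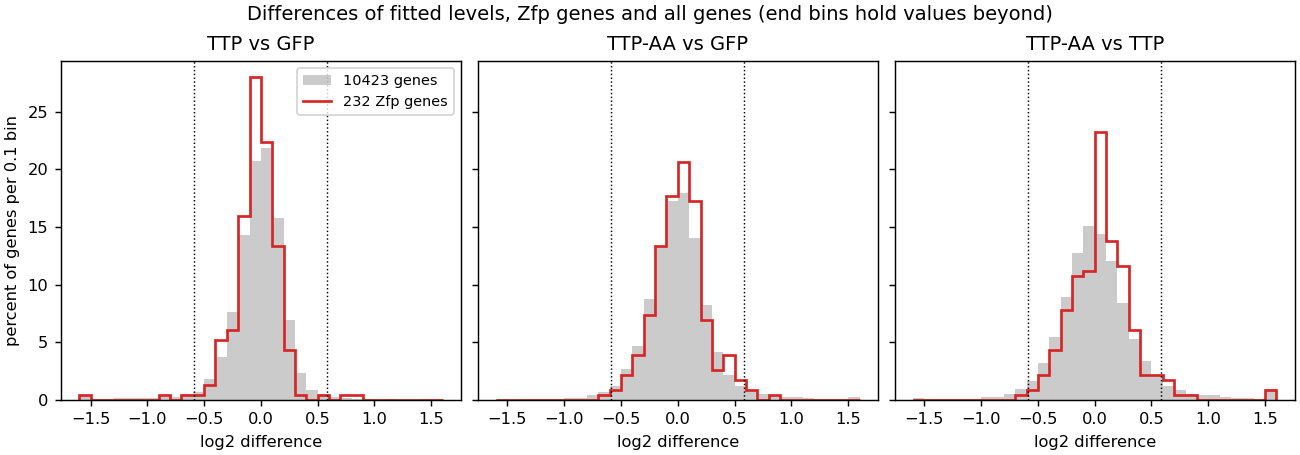
Percent of genes per bin of 0.1 in the log2 difference of fitted group levels, for the 232 Zfp genes (red line) and all 10423 genes (grey), in each comparison; dotted lines mark 1.5-fold and the end bins hold values beyond the axis. The Zfp genes lie closely around 0, with Zfp941 at the far left of TTP vs GFP and Zfp709 and Zfp941 at the far right of TTP-AA vs TTP.

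Members with and without the KRAB pattern were set side by side. For TTP vs GFP the median was -0.055 in the 119 KRAB members, of which 40 were above 0, and 0.0030 in the 113 others, of which 57 were. For TTP-AA vs GFP the medians were 0.0056 and 0.054. For TTP-AA vs TTP they were 0.055 and 0.052, with 7 KRAB members called higher and none lower, and with 1 of the others called in each direction. In that comparison 5.88% of the KRAB members and 1.77% of the others were called in either direction, and 6.49% of all genes. These values are descriptions of one set of fitted means and carry no test of a class difference.

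Other zinc-finger families were read in the same way. The 31 Zbtb genes, which pair fingers with a BTB domain, had medians of -0.026, 0.076 and 0.088 in the order TTP vs GFP, TTP-AA vs GFP and TTP-AA vs TTP, with 1 called lower in the first and 1 called higher in the third (3.23% each). The 13 Zkscan and Zscan genes, which carry a SCAN domain, had medians of -0.041, -0.036 and 0.012 with none called. The 28 genes of other names with a KRAB pattern had medians of -0.080, -0.10 and -0.043, none was called, and 16 of them shared 10% or more of their 50-base stretches with other genes.

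Members with and without TATTTAT in the 3'UTR were compared next. The 74 with the motif had medians of -0.042, -0.0061 and 0.052 in the same order, and the 158 without it, those lacking an annotated 3'UTR included, had -0.021, 0.042 and 0.058. Over all genes with the motif the medians were -0.039, -0.066 and -0.029, against 0.0080, 0.026 and 0.012 over genes with a 3'UTR and no motif. Of the 24 members with the nonamer, Zfp799 was called in TTP vs GFP, Zfp870 in TTP-AA vs GFP and both in TTP-AA vs TTP. These are 4.17%, 4.17% and 8.33% of the 24, where 2.69%, 3.82% and 6.51% of the 707 genes with the nonamer were called.

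The genes were next read by position. A run of 11 members on chromosome 13 (chr13:67121660-67729173), all with a KRAB pattern, was singled out after its values were seen. Of the 11, 10 were above 0 in TTP-AA vs GFP and 9 in TTP-AA vs TTP, with medians of 0.15 and 0.22, while 3 were above 0 in TTP vs GFP with a median of -0.075. It contains Zfp874a, Zfp456 and Zfp429, and also Zfp595, whose TTP-AA vs TTP difference was 0.52. The 2 other genes of the interval with a mean of 100 or more had a median of 0.37 in TTP-AA vs TTP, and the median of all 416 genes tested on chromosome 13 was 0.018. Of their 50-base stretches, Zfp456, Zfp429 and Zfp874a shared 65.3%, 26.2% and 16.3% with other genes, so some reads may be divided. Likeness among the 11 was not worked out, and the part of shared reads in these differences was not tested.

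The runs on chromosome 17 were less uniform. In the run of 16 at chr17:21008903-23564238, 11 were above 0 in TTP-AA vs TTP with a median of 0.052, and in the run of 11 at chr17:32765496-33631779, which holds Zfp799 and Zfp870, 7 were above 0 with a median of 0.055. Zfp799 and Zfp870 lie in sequence there with no other member between them and differ in pattern, the former being low in TTP and the latter high in TTP-AA. The run of 9 at chr7:29768552-30169750 had 3 above 0 and a median of -0.096.

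**Figure D4:**
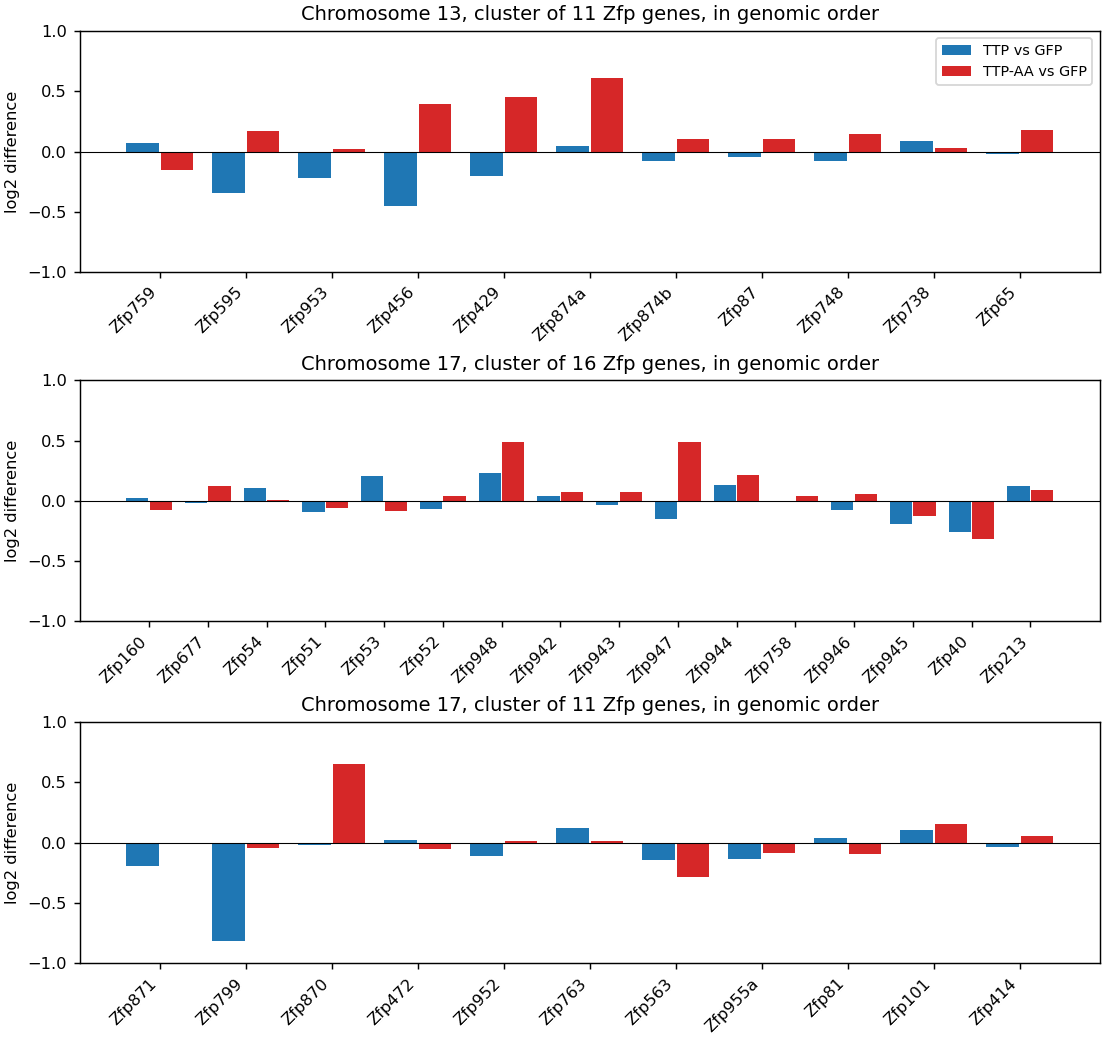
Log2 differences of fitted levels from GFP for TTP (blue) and TTP-AA (red) in 3 runs of Zfp genes, ordered along the chromosome. On chromosome 13, 10 of 11 red bars lie above 0 and 8 of 11 blue bars below, and on chromosome 17 most bars are short apart from Zfp948, Zfp947, Zfp799 and Zfp870.

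Whole chromosomes also differed between the groups. For TTP vs GFP the median over all tested genes of a chromosome ran from -0.22 on chromosome 3 to 0.19 on chromosome 19. The members on chromosome 3 had a median of -0.31 over 3 genes, and those on chromosome 10 had 0.22 over 5 genes in TTP-AA vs TTP, where all genes of that chromosome had 0.18. With each chromosome centred on its own median, 2 members were called higher and 1 lower in TTP-AA vs GFP, and the counts of the other comparisons did not move. Zfp217 and Zfp874a then gave -0.57 and 0.58, on the other side of the limit. The share of all genes called after centring was not worked out.

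Members with known roles, in silencing and outside it, were described from lists. Of the RNA and ribosome group, 7 were present and none was called, where 7.95% of all genes were called in any comparison. Zfp622 gave -0.27 for TTP-AA vs TTP with overlapping libraries, and Zfp326, a regulator of transcription and splicing, had a difference of -0.41 with levels of 1355, 997 and 1596 in TTP and 1022, 754 and 1199 in TTP-AA. Zfp598, the ubiquitin ligase that senses collided ribosomes, stayed between 856 and 1021 in every library.

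None of the 3 genes of the ubiquitin, SUMO and spindle group was called, where again 7.95% of all genes were called in any comparison. Zfp91 had levels of 7057, 5453 and 6845 in GFP, 8017, 6154 and 7790.0 in TTP and 8306, 6402 and 8043 in TTP-AA, which overlap. Zfp451, a SUMO ligase, differed by at most 0.14 in size and Zfp207 by at most 0.17, both between TTP-AA and GFP.

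In the silencing group, 3 of 5 reached the mean of 100. Zfp809, which represses murine leukaemia virus through its primer binding site, had levels of 419, 286 and 386 in GFP, 347, 235 and 319.5 in TTP and 424, 288 and 389.6 in TTP-AA, the ranges overlapping. Its difference was -0.28 for TTP vs GFP (-0.41 to -0.14) and 0.29 for TTP-AA vs TTP (0.17 to 0.41). Zfp568, a KRAB repressor of Igf2, differed by 0.24 for TTP vs GFP, and Zfp932 by less than 0.05 in each comparison.

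Of the 18 transcription regulators, 1 was called, Zfp217 in TTP-AA vs GFP, where 3.75% of all genes were called in that comparison. In TTP-AA vs TTP 13 of the 18 were above 0 with a median of 0.10, and 50.5% of all genes were above 0 with a median of 0.0036. The largest difference of the 18 was that of Zfp263. It had levels of 1822, 2393 and 3448 in GFP, 1639.7, 2139 and 3109 in TTP and 2567, 3362 and 4850.0 in TTP-AA. Its difference of 0.65 passed 1.5-fold, yet the libraries overlapped because levels differed by 0.92 on the log2 scale across replicate numbers. Without replicate 1 or without replicate 3 its libraries no longer overlapped and it met the calling rule, at 0.65. Zfp462, a chromatin regulator of embryonic stem cells, differed from GFP by 0.52 in TTP and 0.57 in TTP-AA, with overlap in both.

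The genes through which KRAB proteins act were taken as a list of 22 co-repressors, of which 21 reached a mean of 100. None of these 21 was called in any comparison, where 7.95% of all genes were. Dnmt3b, a DNA methyltransferase with a mean of 69.4, was below that limit and met the calling rule in TTP-AA vs GFP (0.63, 0.36 to 0.89). For TTP vs GFP 15 of the 21 were above 0 with a median of 0.11, and for TTP-AA vs GFP 6 with a median of -0.11. For TTP-AA vs TTP 3 were above 0 with a median of -0.17, where the median of the 232 zinc-finger genes was 0.055. All genes had medians of -0.0048, 0.0029 and 0.0036 in the same order, with 48.9%, 50.5% and 50.5% above 0. Trim28, the KRAB-binding scaffold, had levels of 9639.6, 10401 and 9826 in GFP, 11633, 12470.3 and 11880.4 in TTP and 10506, 11308 and 10692 in TTP-AA, so that TTP lay above both other groups and the difference from GFP was 0.27 (0.25 to 0.29).

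Mphosph8, a subunit of the HUSH silencing complex, had the largest difference of the list for TTP-AA vs TTP, with levels of 1241, 1074 and 1189.5 in TTP and 860.3, 748 and 822 in TTP-AA that did not overlap (-0.53, -0.60 to -0.46). Hdac1, a deacetylase of the NuRD complex, gave -0.50, Chd3, a NuRD remodeller, -0.44, Uhrf1, which links DNA methylation to replication, -0.42, and the HP1 gene Cbx3 -0.41. Setdb1 was at 0.027 in that comparison and at -0.19 for TTP vs GFP. Each difference given in this paragraph lies within 1.5-fold.

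The order of the 3 groups was then read for each member. TTP was the lowest and TTP-AA the highest group in 68 of the 232, the most frequent of the 6 orders, and GFP lowest with TTP between it and TTP-AA came next with 41. TTP-AA lowest with TTP highest was found in 39, and the remaining orders in 36, 31 and 17. Most of these orders rest on differences within 0.25 and neighbours in them mostly overlap. The orders were not counted over all genes, so their frequencies are not shown to be particular to the members. By the summed distance of group-centred levels over 3 groups, the members nearest to Zfp941 were Zfp799 at 1.27, Zfp456 at 1.55 and Zfp618 at 1.69.

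Differences tied to the replicate number were wider than those between groups for most members. The fitted range over replicate numbers had a median of 0.32 and the range over GFP, TTP and TTP-AA a median of 0.21. The former exceeded the latter in 153 of the 232 (65.9%), where it did in 61.8% of all genes. Zfp609 had the widest replicate range at 1.35, with levels of 434, 170.0 and 412 in GFP, followed by Zfp385a at 1.21 and Zfp142 at 1.07, and none of these was called. In the authors' model this term stands for the library date, and the date itself was not separated from other features of a replicate number.

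**Figure D5:**
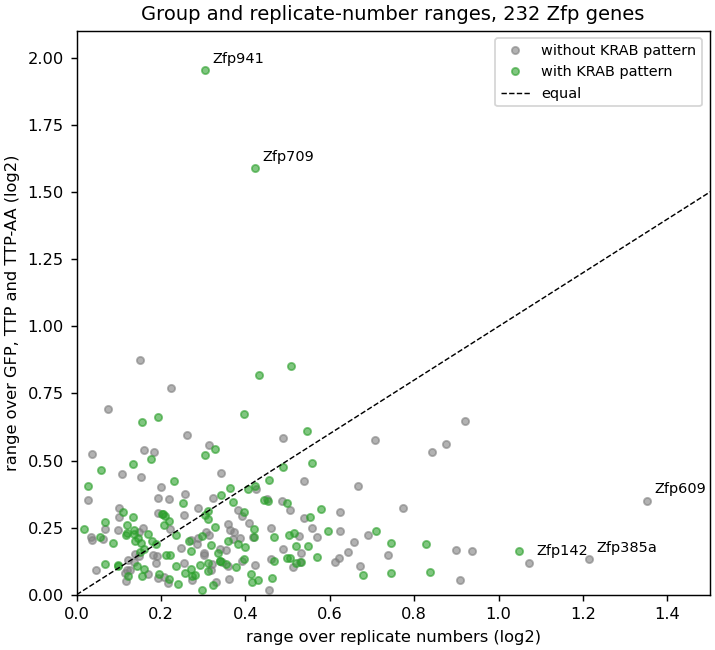
For each of the 232 Zfp genes, the range of fitted log2 levels over the 3 groups (vertical axis) against the range over the 3 replicate numbers (horizontal axis), with the dashed line at equality. Most points, 153 of 232, lie below the line, and Zfp941 and Zfp709 lie farthest above it.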

How the data were processed

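RNA was measured by single-end sequencing in 9 libraries, 3 each of GFP, TTP and TTP-AA, grouped by sample title. Per the authors, reads were aligned with TopHat to GRCm38, and DESeq2 1.6.3 was fitted with library date and condition as terms; HTSeq is named in the submitters' notes. Strand use and shrinkage of differences are not given in the sources used here. The deposited signal values are the authors' fitted means. After centring, their log2 values had 4 nonzero singular values of 8, none of the values was 0, and the largest residual from replicate and group terms was 7.0e-15. The authors' fold changes, standard errors, scores and p-values were not used, and only their mean signal served for the inclusion limit.

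Libraries were scaled by the median of ratios over 10423 genes with Python 3.11.15, numpy 2.4.6 and pandas 2.3.3, and the calling step was tested on simulated data. The ratio of the deposited mean to the scaled mean had a median of 0.997, so levels were read as counts for 95% Poisson intervals. Gene models, proteins and 3'UTRs came from GENCODE M21, using the transcript with the longest coding sequence. A KRAB A box needed either of 2 residue patterns and at least 1 finger pattern, settled after looking at protein starts. Named genes are the 6 largest called differences per direction and comparison, the 6 highest levels per kilobase and the role lists. Genes and lists were chosen with earlier results of these data known.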

Additional observations from a re-analysis of the deposited data

Results flagged for a closer look

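Zfp709 differed from GFP in opposite directions in the 2 transgene lines. All 3 TTP libraries lay below all GFP libraries, all 3 TTP-AA libraries lay above them, and the log2 difference between TTP-AA and TTP was 1.59. The difference between both effects was not tested, since the library values are fitted and carry no scatter. Its levels lay between 54.6 and 222 reads.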

How the results depend on the processing

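The 161 alternative values of named members kept their direction and stayed within the spread of the libraries. For part of them this was fixed in advance. The fitted group difference of a gene is the same in every replicate number, so leaving out a replicate number could move it only through the scaling. Taking a subset of the members leaves a member's own value unchanged. Counts of calls moved with the limit, the minimum mean, the centring and, by 1, the scaling. At the lower of the other fold limits tried, 10 members were lower in TTP vs GFP, 16 higher and 9 lower in TTP-AA vs GFP, and 20 higher and 9 lower in TTP-AA vs TTP, where 4.3%, 5.44%, 5.97%, 8.86% and 8.09% of all genes were. At 2-fold, 0 were higher and 1 lower in TTP vs GFP, 0 and 0 in TTP-AA vs GFP, and 2 and 0 in TTP-AA vs TTP, where the shares of all genes were 0.288% and 0.921%, 0.72% and 0.211%, and 1.82% and 0.556%. With a minimum mean of 200, 1 was higher and 1 lower in TTP vs GFP, 1 higher in TTP-AA vs GFP and 3 higher in TTP-AA vs TTP, and with 50, 2 were lower in TTP-AA vs TTP. Centring by chromosome left 1 lower in TTP-AA vs GFP. Scaling by totals or over all listed genes left 7 of 8 higher in TTP-AA vs TTP, ending the call of Zfp518b. Shares of all genes called were not worked out for the other minimum means, the centring or the other scalings.

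Medians moved slightly. For TTP vs GFP the median was -0.012 with scaling over all listed genes, -0.014 with scaling by totals and -0.016 with a minimum mean of 50. For TTP-AA vs GFP it was 0.015, 0.0038 and 0.021 in these settings, 0.032 with the upper quartile, 0.038 with a minimum mean of 200 and 0.019 centred by chromosome. For TTP-AA vs TTP it was 0.035 with all listed genes, 0.025 with totals, 0.070 with the upper quartile, 0.062 with a minimum mean of 200 and 0.062 centred by chromosome. Leaving out each replicate number in turn gave 0.023 to 0.029 for TTP-AA vs GFP. The fitted differences are the same in every replicate number, so only the scaling could move this median. It is therefore no check of agreement between replicates.

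Chosen after seeing the data were the 180 members with under 10% shared 50-base stretches and the 158 with no overlapping gene. The former had 1 lower call and a median of -0.0011 in TTP-AA vs GFP, a change of sign, and 5 higher and 0 lower calls in TTP-AA vs TTP. The latter had 1 higher and 1 lower in TTP vs GFP, 1 lower and a median of 0.0026 in TTP-AA vs GFP, and 3 higher and 0 lower in TTP-AA vs TTP. No paired analysis was possible because levels fitted with a replicate term leave no residual. The cause of these shifts was not tested. The counting error of a member's difference had a median of 0.056 to 0.063 on the log2 scale.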
